A study of Mus musculus with 16 samples.

Results

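The 9 genes described here encode enzymes of mitochondrial fatty acid oxidation: Cpt1a, Cpt2, Acadvl, Acadl, Acadm, Hadha, Hadhb, Acaa2 and Etfdh. They were followed through every probe set, a group of array probes for 1 transcript, whose only gene symbol in the platform annotation was one of these 9. That gave 18 probe sets, 1 each for Acadm, Acadvl and Hadha, 2 each for Cpt2, Acadl and Etfdh, and 3 each for Cpt1a, Hadhb and Acaa2. The 9 genes were all measured and belong to 18168 genes tested. Where a gene had more than 1 probe set, they were averaged. None of the 9 is an enzyme dedicated to making ketone bodies, so they are called fatty acid oxidation enzymes below, and ketone body genes appear only in a wider list.

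Fatty acid oxidation breaks acyl-CoA down to acetyl-CoA inside mitochondria. The carnitine palmitoyltransferases Cpt1a and Cpt2 bring long-chain fatty acids across the mitochondrial membranes, acyl-CoA dehydrogenases take the first oxidation step, and the trifunctional protein and thiolases complete each round. The dehydrogenases hand their electrons to electron-transferring flavoprotein and from there, through Etfdh, to the ubiquinone of the respiratory chain. In the brain this pathway is known mainly from astrocytes and other non-neuronal cells, since neurons burn little fat.

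The animals were mice overexpressing a mutant form of Twinkle, the helicase that unwinds mitochondrial DNA, and wild-type mice. The mutants, called deletor mice, model progressive external ophthalmoplegia, in which the eye muscles weaken and mitochondrial DNA carries deletions. Total RNA from cerebellum and from hippocampus was hybridised to Affymetrix arrays, 16 in all, with 4 arrays for each genotype in each region. In both regions the mutants of replicates 1 to 4 were 24, 24, 21 and 21 months old and the wild types 26, 24, 21 and 23 months old, so all groups were of aged animals. The promoter of the transgene, the strain and the sex are not in the labels, nor is whether both regions came from the same animal. A free-text description calls the hippocampal samples cerebellum, and the title, source and tissue entries that call them hippocampus were followed. The labels call the replicates biological but do not say how the animals were kept or batched, and p-values measure only the spread between these samples.

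Each value is a log expression value set against its region's median, taken here as log2 although the base is not stated. Every probe set had a median of 0 over the 8 arrays of a region, so neither the level of an enzyme nor the levels of cerebellum and hippocampus can be compared, and only differences within a region are given. A genotype difference below is the mutant mean minus the wild-type mean, tested two-sided with limma across all 18168 genes and adjusted by Benjamini-Hochberg with a threshold of 0.05. The 4 arrays per group limit the precision.

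Hadha and Hadhb, the alpha and beta subunits of the trifunctional protein, lie head to head on mouse chromosome 5, and their promoter windows are shown because the 2 genes are compared with each other below. The windows run from 250 bases before to 50 bases after each RefSeq start, the strands are opposite, and the capitals mark the bases from the start onward. The Hadha window is chr5:30154931-30155230 on the minus strand and the Hadhb window is chr5:30155003-30155302 on the plus strand, in GRCm38.p6. They share 228 bases, from 30155003 to 30155230, and 272 bases lie between the first bases of the 2 transcripts.
Hadha: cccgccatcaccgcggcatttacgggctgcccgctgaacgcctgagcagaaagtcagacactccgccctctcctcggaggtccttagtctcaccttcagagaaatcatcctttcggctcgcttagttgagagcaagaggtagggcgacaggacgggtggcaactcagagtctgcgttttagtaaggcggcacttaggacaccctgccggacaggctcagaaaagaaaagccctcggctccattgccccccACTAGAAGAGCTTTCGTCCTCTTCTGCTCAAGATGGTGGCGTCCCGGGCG
Hadhb: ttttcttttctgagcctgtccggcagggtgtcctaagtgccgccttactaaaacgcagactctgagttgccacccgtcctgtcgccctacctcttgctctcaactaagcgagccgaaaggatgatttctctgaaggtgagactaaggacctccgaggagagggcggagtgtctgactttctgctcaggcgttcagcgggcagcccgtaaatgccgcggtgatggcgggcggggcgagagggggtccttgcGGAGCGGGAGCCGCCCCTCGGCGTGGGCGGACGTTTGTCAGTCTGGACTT
RefSeq windows were matched for 8 of the 9 genes. The nuclear receptor half-site AGGTCA, the kind of element that peroxisome proliferator-activated receptors and related receptors bind, was searched on both strands and occurred in the windows of Acadm, Acadvl and Cpt1a, which is 3 of 8 genes. It occurred in 16.3% of all 32851 windows. The direct repeat AGGTCANAGGTCA occurred in none of the 8 windows and in 0.0396% of all, and the extended half-site TCAAGGTCA, which contains the shorter one, in none of the 8 and in 0.423% of all. The nuclear respiratory factor 1 palindrome occurred in the Etfdh window and in 0.971% of all. A match describes the letters only.

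Some arrays stood apart and are named before the results they touch. Wild-type hippocampus replicate 1 had cerebellar granule neuron markers at a mean of 2.71 and Purkinje cell markers at 1.74, and mutant hippocampus replicate 1 had 0.97 and 0.48, while the other 6 hippocampal arrays lay between -0.29 and 0.28 for granule neurons and between -0.09 and 0.08 for Purkinje cells. Choroid plexus markers were at 1.98 in mutant hippocampus replicate 4, and meningeal and fibroblast markers at 1.13 in mutant hippocampus replicate 1. In the cerebellum, the poly-A spike-in controls were at 0.62 and 0.65 in mutant replicates 2 and 4 against -0.22 to 0.05 on the other 6 arrays. The hybridization spike-in controls were at -0.72 in wild-type cerebellum replicate 4 and between -0.11 and 0.27 on the other 7 cerebellar arrays. Twnk, the gene for Twinkle, was read by 1 probe set which may or may not see the transgene, and it differed by 0.06 (SE 0.05) in each region, with limma adjusted p of 0.915 in cerebellum and 0.766 in hippocampus, which leaves label and overexpression unchecked.

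In neither region did any of the 9 enzymes pass the test. The median genotype difference of the 9 genes was 0.05 in the cerebellum, against 0.01 over all genes, and 0.06 in the hippocampus, against 0.02 over all genes. In the cerebellum 6 of the 9 differences were above 0, where 53.6% of all genes were, and in the hippocampus 7 of 9, where 58.9% of all genes were. The limma test called 0 of 9 in each region, against a background of 0.00% of 18168 genes called in the cerebellum and 0.00% in the hippocampus. An unadjusted p below 0.05 was reached by 0 of 9 in the cerebellum, where 5.39% of all genes reached it, and by 2 of 9 in the hippocampus, Acaa2 and Hadha, where 8.03% of all genes did. Among the 18 single probe sets, 5 had all 4 mutants above all 4 wild types in the hippocampus, where 2.80% of 44904 probe sets did and 4.46% were apart in either direction. They belong to Cpt1a, Acadl, Hadha, Hadhb and Acaa2, and none of the 5 passed the test. In the cerebellum 0 of 18 were apart in either direction, where 2.36% of all probe sets were. The plot of member values by array shows that the 9 enzymes did not move as a block and that most values lie close to the regional median.

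**Figure D1:**
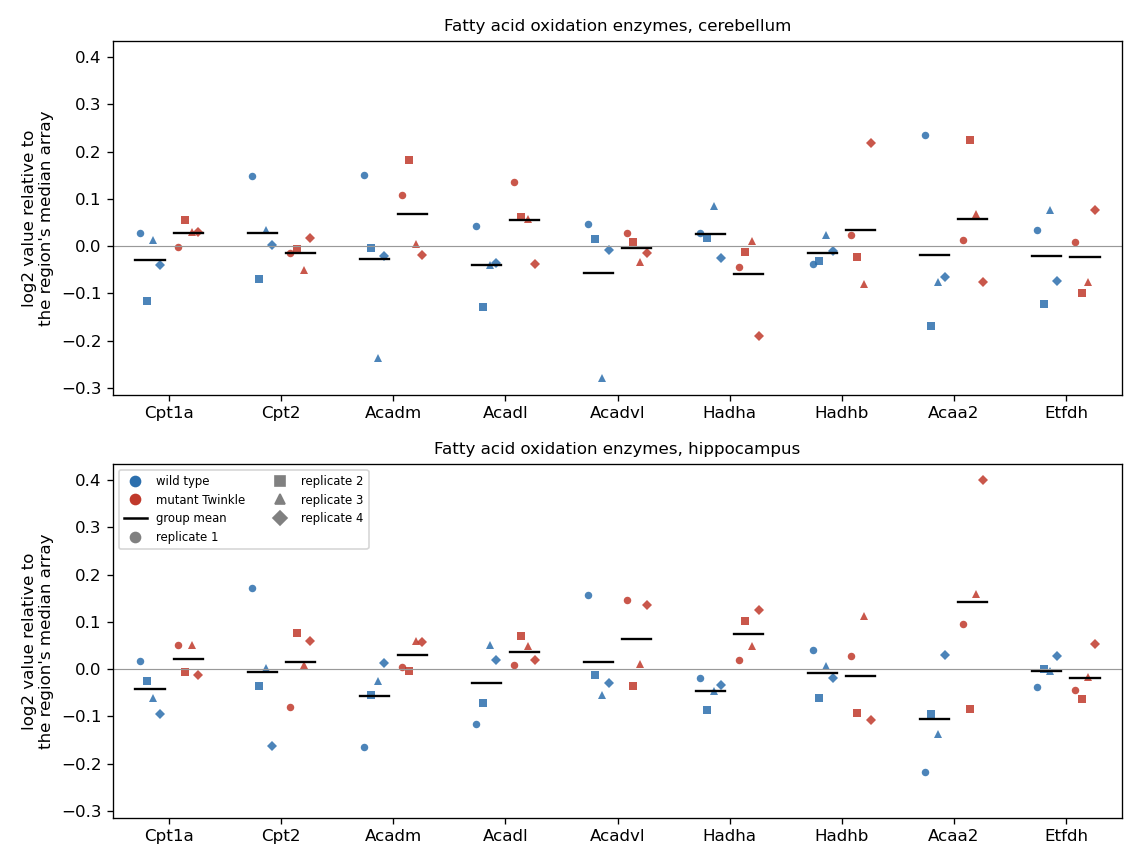
Values of the 9 enzymes on each of the 16 arrays, as log expression relative to the median array of the region, with 1 point per array and a bar at each group mean. Mutant and wild-type points overlap for every gene in the cerebellum, and in the hippocampus the 4 mutant Hadha values of 0.02 to 0.13 lie above the 4 wild-type values of -0.09 to -0.02.

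Cpt1a, the outer-membrane carnitine palmitoyltransferase and the regulated entry step of the pathway, was nearly level. In the cerebellum mutants 1 to 4 read -0.00, 0.05, 0.03 and 0.03 and wild types 0.03, -0.12, 0.01 and -0.04. In the hippocampus mutants read 0.05, -0.01, 0.05 and -0.01 and wild types 0.02, -0.02, -0.06 and -0.10. The groups overlapped in both regions, and the difference was 0.06 (SE 0.05) in each, with limma adjusted p of 0.914 in cerebellum and 0.743 in hippocampus. Its 3 probe sets disagreed in the cerebellum, where 1434866_x_at and 1438156_x_at differed by 0.09 and 0.15 and 1460409_at by -0.07. In the hippocampus 1460409_at was the 1 of 3 without overlap, with mutants at 0.04, 0.08, 0.02 and 0.03 and wild types at -0.02, -0.10, -0.18 and -0.08, and its difference of 0.14 (SE 0.06) had a limma adjusted p of 0.673.

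Cpt2, the inner-membrane partner that turns acylcarnitine back into acyl-CoA, showed no common direction. Cerebellar mutants read -0.01, -0.01, -0.05 and 0.02 and wild types 0.15, -0.07, 0.03 and 0.00. Hippocampal mutants read -0.08, 0.08, 0.01 and 0.06, inside the wild-type values of 0.17, -0.03, 0.00 and -0.16. The difference was -0.04 (SE 0.07) in the cerebellum, with a 95% interval of -0.183 to 0.098, and 0.02 (SE 0.07) in the hippocampus, with an interval of -0.119 to 0.162. Both were smaller than the spread among wild types, whose SD was 0.09 and 0.14.

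Acadvl, the very-long-chain acyl-CoA dehydrogenase of the inner membrane, was set apart by 1 array. Cerebellar mutants lay between -0.03 and 0.03, and wild types read 0.05, 0.01, -0.28 and -0.01, with replicate 3 far below the rest. Hippocampal mutants read 0.15, -0.04, 0.01 and 0.14 and wild types 0.16, -0.01, -0.05 and -0.03, so that in each genotype replicate 1 was the highest array. The genotype difference was 0.05 (SE 0.07) in both regions, and in the cerebellum it was -0.02 without wild-type replicate 3.

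Acadl, the long-chain acyl-CoA dehydrogenase, was slightly above 0 in both differences. Cerebellar mutants read 0.14, 0.06, 0.06 and -0.04 and wild types 0.04, -0.13, -0.04 and -0.04, and mutant replicate 4 and wild-type replicate 1 crossed into the other group. Hippocampal mutants read 0.01, 0.07, 0.05 and 0.02 and wild types -0.12, -0.07, 0.05 and 0.02, with the older wild types of replicates 1 and 2 lowest. The difference was 0.09 (SE 0.05, limma adjusted p = 0.884) in the cerebellum and 0.07 (SE 0.05, limma adjusted p = 0.766) in the hippocampus. There its probe set 1448987_at did not overlap between genotypes, with mutants at 0.06, 0.00, 0.10 and 0.03, wild types at -0.07, -0.02, -0.11 and -0.00 and a difference of 0.10 (SE 0.06, limma adjusted p = 0.766), while 1448988_at overlapped, with a difference of 0.04.

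Acadm, the medium-chain acyl-CoA dehydrogenase, behaved much like Acadl. Cerebellar mutants read 0.11, 0.18, 0.00 and -0.02 and wild types 0.15, -0.00, -0.24 and -0.02. Hippocampal mutants read 0.00, -0.00, 0.06 and 0.06 and wild types -0.16, -0.05, -0.02 and 0.01. In the cerebellum the genotypes were interleaved, and in the hippocampus only wild-type replicate 4 reached into the mutant range. The difference was 0.10 (SE 0.07, limma adjusted p = 0.903) in the cerebellum and 0.09 (SE 0.07, limma adjusted p = 0.77) in the hippocampus.

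Hadha was the one enzyme of the 9 whose hippocampal groups did not overlap. This subunit of the trifunctional protein carries the hydratase and the hydroxyacyl-CoA dehydrogenase activities. In the hippocampus mutants read 0.02, 0.10, 0.05 and 0.13 and wild types -0.02, -0.09, -0.05 and -0.03. The difference was 0.12 (SE 0.05, 95% interval 0.0116 to 0.227), and its limma adjusted p was 0.591. Groups failed to overlap in either direction for 4.76% of all genes in the hippocampus and for 2.46% in the cerebellum, so 1 of 9 and 0 of 9 are the counts to read against these. In the cerebellum Hadha pointed the other way, with mutants at -0.04, -0.01, 0.01 and -0.19 and wild types at 0.03, 0.02, 0.08 and -0.03. Mutant replicate 4, which had high poly-A controls and choroid plexus markers at -1.28, was the lowest, and the cerebellar difference of -0.08 (SE 0.05, limma adjusted p = 0.884) was -0.04 without it.

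Hadha was also the member with the largest difference between the regions. Its hippocampal minus its cerebellar genotype effect was 0.20 (SE 0.07, 95% interval 0.0513 to 0.356), with an unadjusted p of 0.0119 and a limma adjusted p of 0.867. The same contrast lay between -0.06 and 0.17 for the other 8 genes, and 0 of 9 were called against 0.00% of all genes. At an unadjusted p under 0.05 it was 1 of 9, where 5.35% of all genes fell below that value. The regional difference for Hadha was 0.16 without mutant cerebellum replicate 4.

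Hadhb, the beta subunit that carries the thiolase activity of the same complex, did not follow Hadha as a gene mean. Its cerebellar mutants read 0.02, -0.02, -0.08 and 0.22 and wild types -0.04, -0.03, 0.02 and -0.01, with mutant replicate 4 alone far up. Its hippocampal mutants read 0.03, -0.09, 0.11 and -0.11 around wild types of 0.04, -0.06, 0.01 and -0.02. The difference was 0.05 (SE 0.06) in the cerebellum and -0.01 (SE 0.06) in the hippocampus, with limma adjusted p of 0.952 and 0.984.

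The 3 Hadhb probe sets did not agree, and one of them tracked Hadha in the hippocampus. In the hippocampus 1426522_at read 0.04, 0.03, 0.05 and 0.10 in mutants and -0.04, -0.17, -0.03 and -0.10 in wild types. Those groups did not overlap, as for 4.46% of all probe sets, and the difference was 0.14 (SE 0.05, unadjusted p = 0.0209, limma adjusted p = 0.652). The other Hadhb probe sets, 1437172_x_at and 1442732_at, differed by -0.06 and -0.09 there, and they spread more widely. Over the 8 hippocampal arrays the correlation of Hadha with 1426522_at was r = 0.89 (exact permutation p = 0.00332, adjusted p = 0.0199 over 6 relations) and Spearman's rho = 0.86 (exact permutation p = 0.0107, adjusted p = 0.0643). It was 0.91 without the 2 arrays farthest from the median Hadha value, and 0.60 for deviations from the group means, which leave out the genotype difference. Over the 8 cerebellar arrays r was -0.14 (exact permutation p = 0.69). The other 2 probe sets ran against Hadha in both regions. For 1442732_at r was -0.80 in the cerebellum (exact permutation p = 0.0283, adjusted p = 0.085) and -0.57 in the hippocampus. For 1437172_x_at it was -0.46 and -0.41. Probe set 1426522_at was picked after its values were seen, and each genotype within a region holds 4 arrays, too few for a value of r within it.

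**Figure D2:**
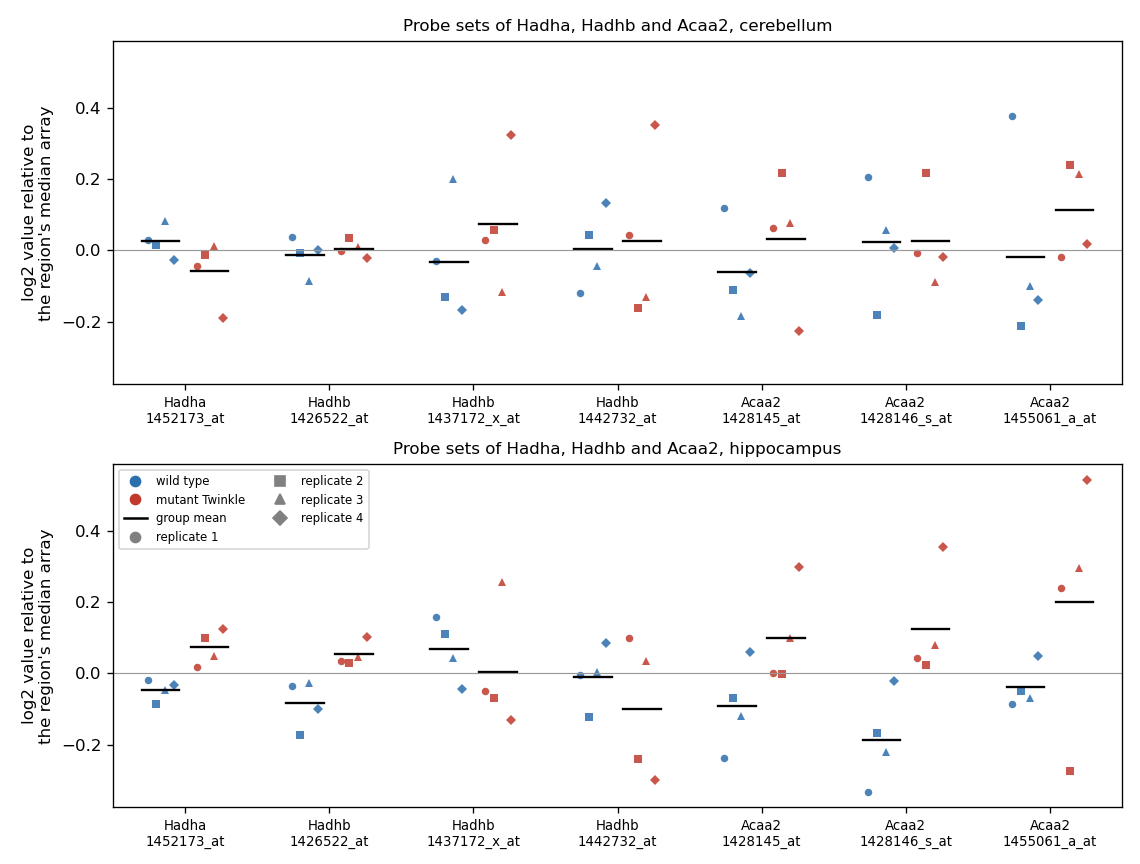
Values of the probe sets of Hadha, Hadhb and Acaa2 on each array, as log expression relative to the median array of the region, with 1 point per array, shaped by replicate, and a bar at each group mean. In the hippocampus Hadha, 1 of 3 Hadhb probe sets (1426522_at) and 1 of 3 Acaa2 probe sets (1428146_s_at) have all 4 mutant points above all 4 wild-type points, as 2.80% of all probe sets do.

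Acaa2, the mitochondrial 3-ketoacyl-CoA thiolase that ends each round for medium-chain substrates, had the largest difference of the 9 in the hippocampus. Mutants read 0.09, -0.08, 0.16 and 0.40 and wild types -0.22, -0.09, -0.14 and 0.03. Mutant replicate 4 was the highest array, and mutant replicate 2 lay among the wild types. The difference was 0.25 (SE 0.10, 95% interval 0.0331 to 0.462), with an unadjusted p of 0.0263 and a limma adjusted p of 0.58. All 3 probe sets pointed the same way, with differences of 0.19, 0.31 and 0.24. For 1428146_s_at the mutants read 0.04, 0.02, 0.08 and 0.36 and the wild types -0.33, -0.17, -0.22 and -0.02, groups that did not overlap (SE 0.10, unadjusted p = 0.0051, limma adjusted p = 0.564). In the cerebellum Acaa2 mutants read 0.01, 0.23, 0.07 and -0.08 and wild types 0.24, -0.17, -0.08 and -0.07, overlapping throughout, with a difference of 0.08 (SE 0.10, limma adjusted p = 0.952).

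The size of the hippocampal Acaa2 difference rested on a few arrays. It was 0.16 without mutant replicate 4, and 0.10 without the 3 arrays with foreign markers, which are wild-type replicate 1 and mutant replicates 1 and 4. Leaving out each array in turn gave 0.16 to 0.32. Hadha was steadier, at 0.13 without those 3 arrays and 0.10 to 0.14 as each array was left out in turn.

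In the hippocampus, markers of several other cell types had genotype differences mostly in 1 direction, although none passed the test. All 8 of 8 ependymal markers had a difference above 0 there, with a median of 0.61. Their mean read 0.03, 0.29, 0.63 and 0.61 in mutants 1 to 4 and -0.34, -0.04, -0.06 and -0.31 in wild types, with no overlap, whereas in the cerebellum it ranged from -0.46 to 0.23 in mutants and from -0.17 to 0.27 in wild types. Differences were above 0 for 10 of 10 meningeal and fibroblast markers (median 0.41), 10 of 11 choroid plexus markers (median 0.26) and 9 of 10 oligodendrocyte markers (median 0.14). The array means of these 3 lists overlapped between genotypes, and 58.9% of all genes had a hippocampal difference above 0. Choroid plexus means read -0.23, -0.42, 0.18 and 1.98 in mutants and 0.81, 0.34, -0.34 and -0.39 in wild types. Only mutant replicate 4 stood above every wild type. Meningeal means read 1.13, 0.10, -0.02 and -0.14 in mutants and -0.44, -0.05, -0.07 and 0.01 in wild types. Their extremes were the 2 arrays of replicate 1. Blood cell markers went the other way and did not overlap in either region, with a mean of the 5 at -0.20 to -0.04 in hippocampal mutants against 0.04 to 0.54 in wild types, and at -0.09 to -0.03 in cerebellar mutants against 0.03 to 0.27. In tissue RNA, more cells of a type and more RNA per cell cannot be told apart. Without the mutant replicates 3 and 4, which were highest, the hippocampal difference was 0.11 for both Acaa2 and Hadha. The part of these other cell types in the Acaa2 and Hadha differences was not tested further. Astrocyte markers, the cells most tied to fat oxidation in brain, had 5 of 12 differences above 0 and a median of -0.05 in the hippocampus.

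**Figure D3:**
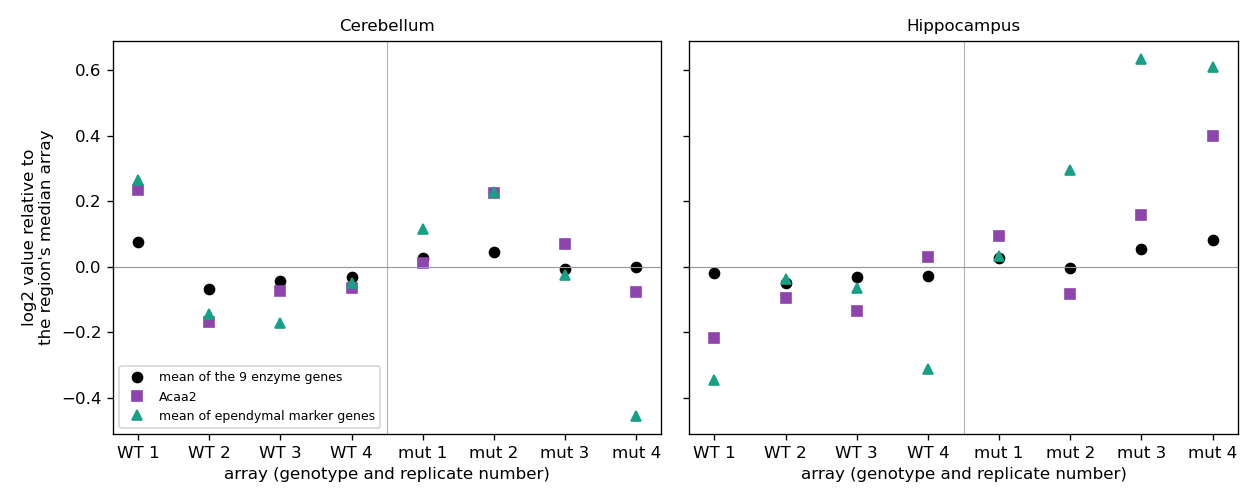
Mean of the 8 ependymal markers, mean of the 9 enzymes and Acaa2 by array, as log values relative to the median array of the region. In the hippocampus the ependymal mean is 0.03 to 0.63 in the 4 mutants and -0.34 to -0.04 in the 4 wild types.

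Etfdh, which passes electrons from the flavoprotein to ubiquinone, was close to level in both regions. Cerebellar mutants read 0.01, -0.10, -0.08 and 0.08 and wild types 0.03, -0.12, 0.08 and -0.07. Hippocampal mutants read -0.04, -0.06, -0.02 and 0.05 and wild types -0.04, 0.00, -0.00 and 0.03. The difference was -0.00 (SE 0.06, 95% interval -0.117 to 0.116) in the cerebellum and -0.02 (SE 0.06, interval -0.131 to 0.101) in the hippocampus. The cerebellar value is an average of probe sets that pointed apart, with 0.12 for 1451084_at and -0.12 for 1458152_at.

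**Figure D4:**
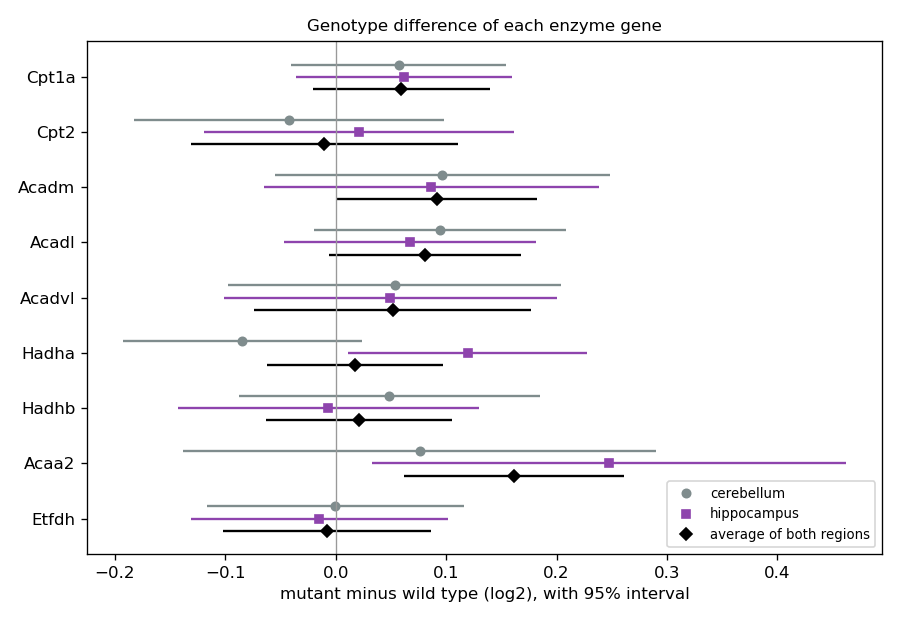
Genotype difference of each of the 9 enzymes in cerebellum, in hippocampus and averaged over both, as mutant minus wild-type log value, with the 95% interval from limma, not adjusted over genes. Among the single regions the intervals of Hadha (0.0116 to 0.227) and Acaa2 (0.0331 to 0.462) in the hippocampus leave out 0, and among the averages those of Acadm (0.00102 to 0.182) and Acaa2 (0.0623 to 0.261).

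When the regions were averaged by genotype and replicate number, giving 4 values per genotype, Acaa2 again led. Its averaged difference was 0.16 (SE 0.04, 95% interval 0.0623 to 0.261), with an unadjusted p of 0.00457 and a limma adjusted p of 0.524. Acadm differed by 0.09 (SE 0.04, unadjusted p = 0.0479, limma adjusted p = 0.581) and Acadl by 0.08 (SE 0.04, unadjusted p = 0.0645, limma adjusted p = 0.598). The averaged mutants lay above the averaged wild types without overlap for Acaa2 and Acadm, which is 2 of 9 genes, and 5.17% of all genes failed to overlap in either direction. The labels do not say that a number joins the 2 regions of 1 animal. The lack of overlap, and each SE, interval and p-value of the averages, depends on which arrays are averaged. For Acaa2, mutant replicate 4 read -0.08 in the cerebellum and 0.40 in the hippocampus, values that partly cancel. Deviations from group means of same-numbered cerebellar and hippocampal arrays correlated between -0.175 and 0.128 in mutants. For unlike numbers the range was -0.164 to 0.260. In wild types the ranges were -0.054 to 0.167 and -0.140 to 0.083. An unadjusted p below 0.05 was reached by 2 of 9 genes and by 8.51% of all genes. The limma test called 0 of 9 genes and 0.00% of all genes, and the median of the 9 of 0.05 stood beside 0.01 over all genes.

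Age was looked at because the arrays span 21 to 26 months. Animals of 24 to 26 months were set against animals of 21 to 23 months in each region, with genotype kept in the fit. In every group the older animals were replicates 1 and 2 and the younger replicates 3 and 4. Age therefore cannot be told apart from any processing set that follows the replicate numbers. In the cerebellum Acadm was 0.18 higher in older animals (SE 0.06, unadjusted p = 0.0128, limma adjusted p = 0.999). The older animals read 0.11, 0.18, 0.15 and -0.00 and the younger 0.00, -0.02, -0.24 and -0.02, touching only at wild-type replicate 2. Acadvl had no overlap in that comparison, with older animals at 0.01 to 0.05 and younger at -0.28 to -0.01. Its difference was 0.11 (SE 0.07, limma adjusted p = 0.999), and 2.26% of all genes did not overlap. Wild-type replicate 3 held the lowest value of both genes, and the other younger Acadvl values were -0.03 to -0.01. For Acadm the age difference was 0.12 to 0.23 as single arrays were left out. In the hippocampus the lead was Acaa2 at -0.19 (SE 0.10, unadjusted p = 0.0703, limma adjusted p = 0.783). Its lowest array was the older wild-type replicate 1 at -0.22 and its highest the younger mutant replicate 4 at 0.40. Both arrays had foreign markers. The limma test called 0 of 9 genes in each region, against 0.00% of all genes in the cerebellum and 0.0661% in the hippocampus. An unadjusted p below 0.05 was reached by 1 of 9 in the cerebellum and 0 of 9 in the hippocampus, beside 3.71% and 6.55% of all genes.

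The 9 enzymes did not rise and fall together from array to array. Over the 36 pairs of genes, the median r across the 8 arrays of a region was 0.15 in the cerebellum, with a range of -0.81 to 0.87, and 0.06 in the hippocampus, with a range of -0.53 to 0.81. Of these 72 relations 0 passed Benjamini-Hochberg adjustment, and 4 cerebellar and 2 hippocampal ones had an unadjusted exact permutation p under 0.05. The dehydrogenases Acadm and Acadvl gave r = 0.87 in the cerebellum (exact permutation p = 0.00714, adjusted p = 0.514), with rho = 0.67 (exact permutation p = 0.0831) and r = 0.84 without the 2 arrays farthest from the median. In the hippocampus Acadm and Acadvl gave r = -0.23 and rho = 0.00. The hippocampal pair of smallest p was Acadm and Acadl, with r = 0.81 (exact permutation p = 0.0161, adjusted p = 0.525). Its rho was 0.43, and its r fell to 0.42 without the 2 farthest arrays. Acadm and Acaa2 gave r = 0.80 there (exact permutation p = 0.0219, adjusted p = 0.525). Their rho was 0.93 (exact permutation p = 0.00223, adjusted p = 0.161), and r was 0.88 without the 2 farthest arrays. Hadha and Hadhb, as gene means, gave r = -0.81 in the cerebellum (exact permutation p = 0.061, adjusted p = 0.542), with rho = -0.57 and r = -0.78 without the 2 farthest arrays. Mutant cerebellum replicate 4 was lowest for Hadha, at -0.19, and highest for Hadhb, at 0.22. In the hippocampus their r was -0.28 (exact permutation p = 0.504, adjusted p = 0.882) and turned to 0.92 without the 2 farthest arrays.

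The mean of the 9 enzymes on each array was small everywhere. It read 0.03, 0.04, -0.01 and 0.00 in cerebellar mutants, 0.08, -0.07, -0.05 and -0.03 in cerebellar wild types, 0.03, -0.00, 0.05 and 0.08 in hippocampal mutants and -0.02, -0.05, -0.03 and -0.03 in hippocampal wild types. The hippocampal means of the mutants lay above those of the wild types by a narrow margin. It was set by mutant replicate 2 at -0.005 and wild-type replicate 1, which had cerebellar markers, at -0.019. How often the mean of other genes separates in this way was not tested. Across all 16 arrays the genes outside the 9 whose pattern was most like this mean were Cd79a (r = 0.917), Decr1 (r = 0.907), Rarres2 (r = 0.894), Nsmce1 (r = 0.888) and Pidd1 (r = 0.882). Decr1 is 2,4-dienoyl-CoA reductase, itself an auxiliary enzyme of fatty acid oxidation, and Rarres2 is also on the ependymal marker list. These 5 were ranked highest of all genes by r, and the arrays share their region's centring.

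The rest of the pathway was read from 6 lists that hold 84 measured genes outside the 9, and 0 of the 84 passed the test in either region. The list closest to the 9 was other mitochondrial beta-oxidation enzymes. It had 24 of 25 genes above 0 in the hippocampus, with a median of 0.09, and 21 of 25 in the cerebellum, with a median of 0.07. Over all genes 58.9% and 53.6% were above 0. The enoyl-CoA isomerases Eci1 and Eci2, which move double bonds so that unsaturated chains can be used, had hippocampal differences of 0.21 and 0.18 with limma adjusted p of 0.584 and 0.58. Without wild-type replicate 1 and mutant replicates 1 and 4 the hippocampal count was 16 of 25, with a median of 0.06, where 54.1% of all genes were above 0. Without mutant replicates 3 and 4 it was 22 of 25, with a median of 0.05. In older animals the same list had 22 of 25 genes below 0 in the hippocampus, with a median of -0.08. Over all genes 45.3% were above 0 in that comparison. Wild-type and mutant replicate 1, with cerebellar markers, were older, and mutant replicate 4, with choroid plexus markers, was younger. The part of these arrays in this age count was not tested.

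Genes that respond to peroxisome proliferator-activated receptors outside beta-oxidation had 12 of 13 differences above 0 in the hippocampus, with a median of 0.11. In the cerebellum they had 10 of 13, with a median of 0.04. Over all genes 58.9% of hippocampal and 53.6% of cerebellar differences were above 0. Cd36, the fatty acid translocase, read 0.20, 0.11, 0.18 and 0.06 in hippocampal mutants and -0.09, 0.02, -0.17 and -0.12 in wild types. Those groups did not overlap, as for 4.76% of all genes, and the difference was 0.23 (SE 0.06, limma adjusted p = 0.426). Plin5, a lipid droplet protein, read -0.01, 0.03, 0.12 and 0.05 against -0.17, -0.03, -0.16 and -0.13, also without overlap, for a difference of 0.17 (SE 0.05, limma adjusted p = 0.494). Cd36, Plin5, Rxrg and Prkaa2 are named because they were the 4 pathway genes of smallest p in the hippocampus, out of 84. In the cerebellum Cd36 and Plin5 differed by -0.02 and 0.03. The hippocampal count was 10 of 13 without wild-type replicate 1 and mutant replicates 1 and 4, beside the share of all genes given above for the same setting.

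The other lists were close to 0. Regulators of fatty acid oxidation had a median of 0.00 in the cerebellum and 0.01 in the hippocampus over 18 genes. Within them the nuclear receptor Rxrg differed by 0.42 (SE 0.11) in the hippocampus. Prkaa2, a catalytic subunit of AMP-activated protein kinase, differed there by -0.22 (SE 0.06), and both had a limma adjusted p of 0.426. In the cerebellum Rxrg differed by 0.04 (SE 0.11) and Prkaa2 by -0.13 (SE 0.06, limma adjusted p = 0.884). The cerebellar Prkaa2 groups did not overlap, as for 2.46% of all genes. The carnitine shuttle and acyl-CoA synthetases had medians of 0.03 and 0.05 over 11 genes, peroxisomal beta-oxidation 0.04 and -0.00 over 11, and ketone body synthesis and use 0.03 and 0.02 over 6. In the last list Bdh1, the mitochondrial 3-hydroxybutyrate dehydrogenase, differed by -0.19 (SE 0.07, limma adjusted p = 0.517) in the hippocampus.

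In the cerebellum the 4 pathway genes of smallest p outside the 9 were Etfa, Scp2, Acsf3 and Acaa1a, each with a limma adjusted p of 0.884. Etfa, a subunit of the electron-transferring flavoprotein that feeds Etfdh, read 0.00, 0.16, 0.03 and -0.00 in mutants and 0.02, -0.18, -0.24 and -0.17 in wild types, for a difference of 0.19 (SE 0.06). Scp2 and Acaa1a, both thiolases of peroxisomes although Acaa1a was counted in the mitochondrial list, differed by 0.20 (SE 0.07) and 0.22 (SE 0.09). Scp2 mutants 1 to 4 read 0.12, 0.26, -0.06 and 0.27 and wild types 0.02, -0.15, -0.11 and 0.01. Acaa1a mutants read -0.00, 0.35, -0.05 and 0.21 and wild types 0.04, -0.31, -0.13 and 0.02. Scp2 and Acaa1a were thus highest on mutant replicates 2 and 4, the arrays with high poly-A controls. Leaving out single arrays gave 0.16 to 0.27 for Scp2 and 0.14 to 0.28 for Acaa1a. The acyl-CoA synthetase Acsf3 differed by -0.17 (SE 0.07), with wild-type replicate 3 far up at 0.27. In the hippocampus Acsf3 went the other way, at 0.15 (SE 0.07, limma adjusted p = 0.599). At an unadjusted p under 0.05, 5 of the 84 genes, or 5.95%, stood in the cerebellum and 11, or 13.1%, in the hippocampus, beside 5.39% and 8.03% of all genes. With age, the 3 of smallest p in the cerebellum were Txnip at 0.30, Etfb at 0.21 and Esrra at -0.20, each with a limma adjusted p of 0.999. In the hippocampus they were Echs1 at -0.21, Ivd at -0.27 and Acss2 at -0.18, with limma adjusted p of 0.575, 0.683 and 0.688. All 3 were lowest on the older wild-type replicate 1, which had cerebellar markers, at -0.23, -0.57 and -0.22.

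**Figure D5:**
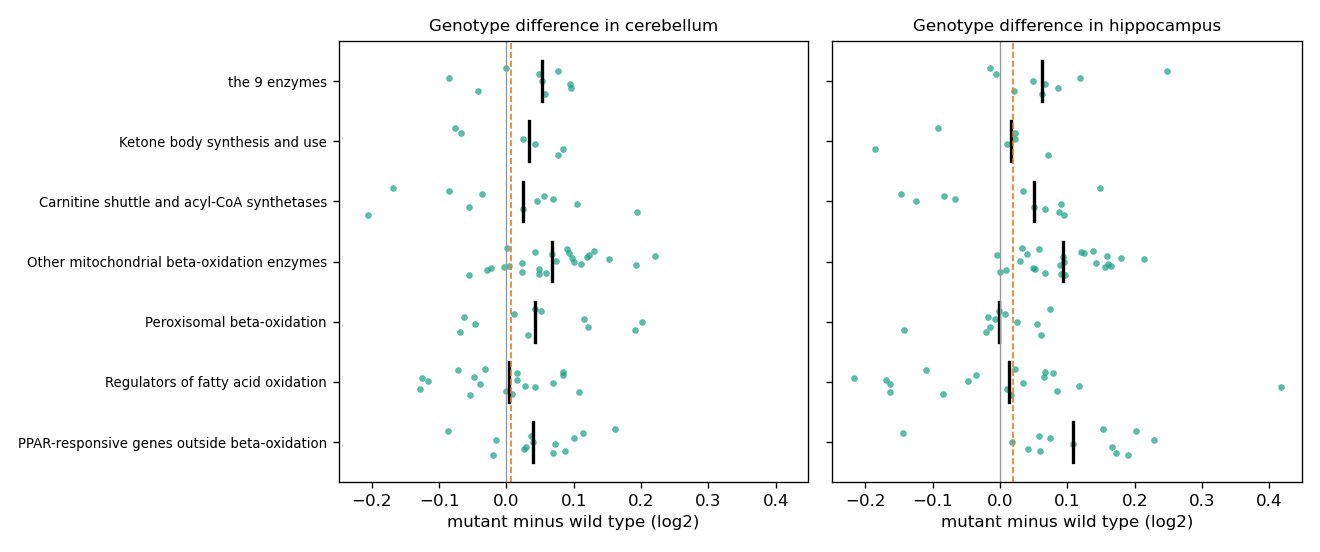
Genotype differences of the 9 enzymes and of the genes of the 6 pathway lists in cerebellum and hippocampus, as mutant minus wild-type log value, with 1 point per gene, a short black line at each list's median and a dashed line at the median of all genes. For the other mitochondrial beta-oxidation enzymes 24 of 25 hippocampal points lie above 0, with a median of 0.09.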

How the data were processed

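RNA of 16 samples was read on Affymetrix arrays after Trizol extraction and biotin labelling, per the labels' protocols. The deposited values are on a log scale, taken as log2, relative to a median of 0 over each region's 8 arrays; how the authors summarised and normalized probes, and the log base, is not stated in what was read. GCOS 4.0 is named, per the submitters' processing notes. Gene symbols came from GEO's platform annotation. Of 45101 probe sets, 64 controls and 133 others with empty values were left out, and the 34843 with 1 symbol were averaged into 18168 genes, 9192 of them with 1 probe set.

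Groups came from titles. limma 3.58.1 in R 4.3.3 fitted the 4 groups together (12 residual degrees of freedom), without a filter on low values, which relative values do not allow. Age comparisons split each group at 24 months. Correlations used exact two-sided permutation tests. The fits were tested on simulated data. The genes and lists were chosen with earlier results of these data known. Every one of the 9 genes is named, with the pathway genes of smallest p (4 per region for genotype, 3 for age) and the 5 most alike in pattern; Eci1, Eci2 and Bdh1 were added after their values were seen. Alternatives covered probe set choice, quantile normalization, centring, array weights, robust variances, age, a replicate block and leaving arrays out. Deviations from the group means of same-numbered mutant and wild-type arrays correlated between -0.192 and 0.0479 in cerebellum and -0.067 and 0.231 in hippocampus, so the numbers were not taken to pair samples. Promoter sequences are RefSeq's, in GRCm38.p6.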

Additional observations from a re-analysis of the deposited data

Results flagged for a closer look

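One array was far from the other 3 of its group for 2 of the 23 genes examined, in 2 of 92 groups, and chance alone flags about 1 in 20 groups. Acadvl was at -0.28 in wild-type cerebellum replicate 3, while the next lowest wild type was at -0.01. Acsf3, a mitochondrial acyl-CoA synthetase, was at 0.27 on the same array, while the next highest wild type was at 0.04. That array also held the lowest cerebellar Acadm value, -0.24.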

How the results depend on the processing

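None of the 9 genes was called under any alternative or left-out array that was run. Counts over all genes, 0 as reported in each genotype comparison, became 2 in the hippocampus with quantile normalization and 2 with robust variances, 1 without wild-type replicate 1 and mutant replicates 1 and 4, and 1 without mutant replicates 3 and 4, a setting added after seeing the data. With the animals of 21 to 23 months only, 1 gene was called in the cerebellum, 1 in the hippocampus and 1 for the average over regions. Fitting each probe set called 1 for the average, and the difference between regions gave 1 without the 3 hippocampal arrays. Leaving out single arrays gave 0 to 7 genes in the hippocampus and 0 to 1 for the difference between regions. For age, the cerebellum gave 2 with quantile normalization and 0 to 24 as single arrays were left out, and the 12 hippocampal genes became 0 without the 3 arrays, 7 by probe set and 0 to 627 as single arrays were left out. For deviations from group means, 1 of the 72 correlations was called.

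Direction turned for small values, and the cause was not tested. Cerebellar Cpt1a was -0.066 without probe sets ending in _x_at or _s_at, which leaves 1 probe set (1460409_at), and hippocampal Cpt1a was -0.0072 by 1438156_x_at. Cerebellar Etfdh was 0.0041 with quantile normalization, 0.018 with array weights and 0.12 by 1451084_at, and hippocampal Etfdh was 0.043 by 1451084_at and 0.00563 at 21 to 23 months. Hippocampal Hadhb was 0.023 without those probe sets, 0.00480 with array weights, 0.0084 at 21 to 23 months, 0.035 without the 3 arrays and 0.14 by 1426522_at, which also turned its correlation with Hadha to 0.886. Cerebellar Hadhb was -0.014 without mutant replicates 2 and 4. At 24 to 26 months Acadvl was -0.013 in cerebellum and -0.017 in hippocampus and hippocampal Cpt2 -0.071. Hippocampal Cpt2 was -0.046 by 1447820_x_at, and hippocampal Acadl -0.00018 at 21 to 23 months. Leaving out single arrays gave -0.021 to 0.088 for cerebellar Acadvl, -0.012 to 0.087 for cerebellar Hadhb, -0.034 to 0.032 for cerebellar Etfdh, -0.031 to 0.081 for hippocampal Cpt2, -0.049 to 0.025 for hippocampal Hadhb and -0.039 to 0.00034 for hippocampal Etfdh.

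The hippocampal difference of Acaa2 stayed above 0 in every alternative, from 0.10 to 0.33, and that of Hadha from 0.10 to 0.14. With the replicate number as a block, Acaa2 kept 0.25 (limma adjusted p = 0.618) and 0 genes were called in each genotype comparison. Among pathway genes the hippocampal age difference of Ivd was -0.39 without wild-type replicate 2, which leaves wild-type replicate 1 as the only older wild type. That array read -0.57 for Ivd and had cerebellar markers. Leaving out single arrays in turn gave -0.39 to -0.15. Relative values with 4 arrays a group, and a signal whose height above background is not known, limit all of these.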
